A study of Canis lupus with 24 samples.

Results

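In the canine bladder carcinoma line K9TCC, the response to an siRNA labelled COX-2 was compared between spheres and adherent cells on Affymetrix Canine Gene 1.1 ST arrays. For each gene the mean log2 value with negative siRNA was subtracted from the mean with COX-2-labelled siRNA, which gives the response of a culture form, and the adherent response was then subtracted from the sphere response. A positive difference is called higher in spheres here, whether it came from a larger rise or from a smaller fall there. All 16295 genes with 1 symbol were tested, and the genes described are the 2489 whose response differed at an adjusted p under 0.05 (limma, Benjamini-Hochberg over all genes), which is 15.3% of those tested. Of these, 1099 were higher in spheres (6.74% of all genes) and 1390 were lower (8.53%).

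The comparison rests on 12 of the study's 24 arrays, 3 in each of 4 groups, all harvested 48 hours after transfection with Lipofectamine RNAiMAX. Adherent cells had been grown in medium with fetal bovine serum. Spheres, which the labels call cancer stem cell spheres, had been grown without serum on ultralow attachment plates with added FGF and EGF, so attachment and medium cannot be told apart. The labels' protocol says that both forms were plated under anchorage-dependent conditions on the day before transfection. Whether the spheres were still spheres at harvest is not stated, so the word names the culture they came from. The other 12 arrays hold adherent cells and spheres given DMSO or 50 uM mavacoxib, a COX-2 inhibitor licensed for dogs, for 24 hours. The labels do not say whether the arrays of a group are separate cultures of this 1 line, and the p-values then describe the spread between arrays, which may be technical.

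Cells read double-stranded RNA in the cytoplasm and in endosomes as a sign of infection, and synthetic siRNAs delivered with lipids can be read in the same way. The sensors act through IRF and NF-kB factors, which switch on interferon genes on the one hand and chemokine and cytokine genes on the other. Secreted interferon then acts through JAK and STAT proteins on a large group of antiviral genes, many of which slow RNA replication, protein synthesis or cell growth.

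PTGS2, the gene of COX-2 and the named target, was not lower on the arrays labelled COX-2 siRNA. In spheres it measured 10.30, 10.29 and 10.35 with negative siRNA and 11.32, 11.51 and 11.59 with COX-2-labelled siRNA. In adherent cells it measured 11.06, 10.89 and 11.02 with negative siRNA and 11.27, 11.50 and 11.20 with COX-2-labelled siRNA. The groups did not overlap in either form, and the direction was upward in both. The rise of 1.16 in spheres passed (adjusted p = 2.57e-07), the value of 0.33 in adherent cells did not (adjusted p = 0.0888), and the difference between them was 0.83 ± 0.18 (SE; adjusted p = 0.00354). Since this goes against the label, the groups are called arrays labelled COX-2 siRNA throughout.

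Arrays of the same siRNA group correlated at 0.9813 to 0.9957 across genes, and sphere with adherent arrays at 0.9162 to 0.9414. Of 12 markers of bladder epithelium, 10 to 11 lay above 4.82, the median of all values, in the adherent groups, and 8 did in each sphere group, where the uroplakins UPK1A, UPK2 and UPK3A were dim. None of 4 leukocyte and none of 6 endothelial and muscle markers did so in any siRNA group. Of 5 fibroblast markers, 1 did in the adherent groups, 2 in spheres with negative siRNA and 3 in spheres with COX-2-labelled siRNA. No detection calls come with the values. Signals under 4.82 may be background, which can make a difference between responses too small or too large. Raising them to 4.82 moved CGA from 5.22 to 6.30 and VCAM1 from 3.73 to 0.78, and such values are given where they change a statement.

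Most of the genes that differed did so through spheres. Of the 2489 genes, 1025 (41.2%) fell in spheres with no passing change in adherent cells, and 676 (27.2%) rose in spheres only. A further 207 rose in both forms and more in spheres, and 200 fell in both and more in spheres. The adherent response was the larger or the only passing response for far fewer genes. There, 114 fell in adherent cells only, 68 rose in adherent cells only and 33 rose in both but more in adherent cells, and SPINK5 alone fell in both and more in adherent cells. In 70 genes the forms passed in opposite directions, and in 95 neither response passed by itself. By themselves, 39% of all genes passed for the sphere response (15.8% higher, 23.3% lower) and 15% for the adherent response (6.42% higher, 8.59% lower).

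The difference was at least 2-fold for 797 of these genes, 446 higher and 351 lower in spheres. In 2109 of the 2489 genes all 9 differences between single sphere arrays lay above or all below the 9 between single adherent arrays. The same arrays chose these genes, so this count describes them and adds no evidence. The share over all genes is not given here. The sphere and adherent responses, which share no array, had a Pearson correlation of 0.5995 across all genes, which are not independent of each other. The median difference over all genes was −0.02.

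**Figure D1:**
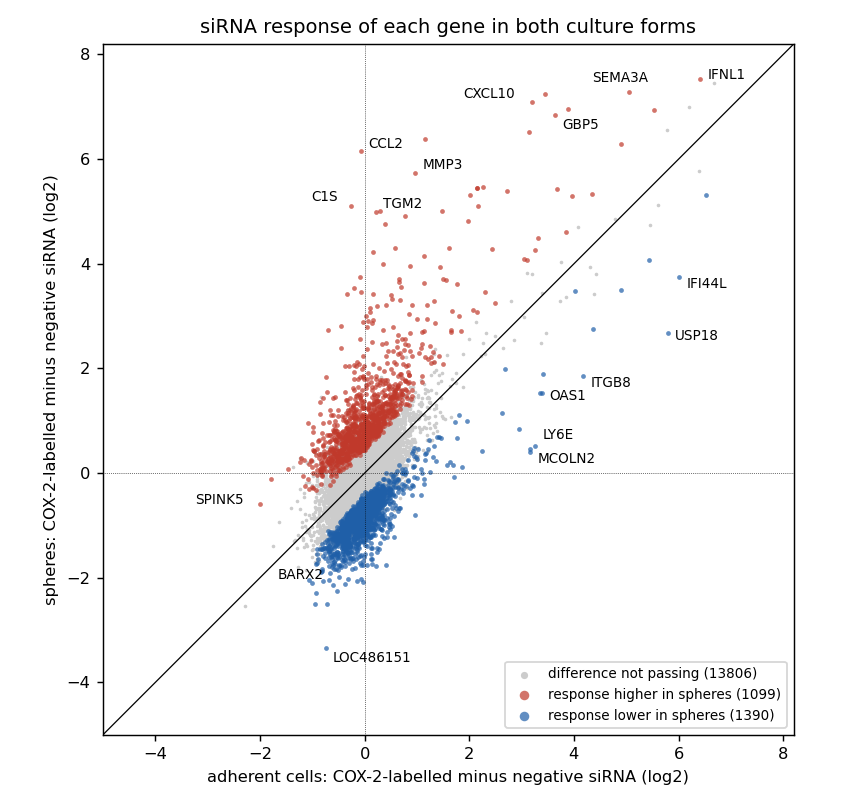
Response of each of 16295 genes (mean with COX-2-labelled siRNA minus mean with negative siRNA, log2, 3 arrays per group) in adherent cells on the horizontal axis and in spheres on the vertical axis, with the line of equal responses. Red points are the 1099 genes higher in spheres and blue points the 1390 lower. CCL2, C1S and TGM2 lie far above the line near a horizontal value of 0, and USP18, IFI44L, LY6E and MCOLN2 lie below it.

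The chemokine gene CCL2, whose product draws monocytes, had the largest difference of all genes. Its 3 values were 3.67, 3.89 and 3.72 in adherent cells with negative siRNA and 3.75, 3.71 and 3.62 with COX-2-labelled siRNA. In spheres they were 4.31, 4.13 and 4.61 with negative siRNA and 10.47, 10.47 and 10.55 with COX-2-labelled siRNA. The adherent groups overlapped, while every sphere array labelled COX-2 siRNA stood far above every other siRNA array. On the sphere DMSO arrays, outside this comparison, CCL2 measured 8.77, 8.85 and 8.53. The difference in siRNA response was 6.21 ± 0.18 (adjusted p = 3.7e-16), and 5.68 with dim signals raised.

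Other genes near the top were also dim in adherent cells with either siRNA and bright in spheres with the COX-2-labelled one. C1S, a serine protease of the first complement component, had sphere values of 2.88, 3.37 and 3.37 with negative siRNA and 8.37, 8.12 and 8.44 with COX-2-labelled siRNA, against 2.24 to 2.65 on all 6 adherent arrays. Its difference was 5.37 ± 0.23 (adjusted p = 6.29e-13), or 3.49 with dim signals raised. Its partner protease C1R differed by 4.15 ± 0.24 (adjusted p = 4.96e-11), with a small rise of 0.77 in adherent cells as well. CGA, the shared alpha subunit of the glycoprotein hormones, rose by 6.38 in spheres and by 1.15 in adherent cells. DIO2, which converts thyroxine to its active form, rose by 5.01 in spheres, and its adherent response of 0.29 did not pass (adjusted p = 0.25). XDH, an enzyme of purine breakdown, rose by 4.75 in spheres, and its adherent response of 0.39 did not pass (adjusted p = 0.278). Of the 10 complement genes measured, C1R and C1S were the only 2 that passed, which is 20%, against 15.3% of all genes.

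TGM2, a protein-crosslinking transglutaminase, took a different course. Adherent arrays were bright throughout, at 10.94, 10.99 and 10.91 with negative siRNA and 11.14, 11.10 and 11.27 with COX-2-labelled siRNA. Sphere arrays went from 4.14, 4.12 and 3.77 to 9.21, 8.93 and 8.87. The gap between forms therefore narrowed from −6.94 to −2.17, and the difference in response was 4.77 ± 0.22 (adjusted p = 1.28e-12).

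The gap between culture forms at either end was described for all genes that differed, with the classes sorted after the values were seen. Spheres and adherent cells were apart in the same direction with both siRNAs for 949 genes (38.1%, against 31% of all 16295 genes). They were apart only with COX-2-labelled siRNA for 818 (32.9%, against 16%) and only with negative siRNA for 525 (21.1%, against 10.7%). For 152 genes (6.11%, against 0.933%) the gap passed with both siRNAs but in opposite directions. In 45 (1.81%, against 41.3%) it passed with neither siRNA. These gaps use the same 12 arrays as the difference itself, so they describe it and do not add to it.

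Of 6 interferon genes measured, 4 rose in spheres and 3 in adherent cells. The difference was higher in spheres for 4 (66.7%, against 6.74% of all genes) and lower for none, with a median of 1.31. IFNB1, which encodes interferon beta, went from 2.11, 1.83 and 2.39 to 8.83, 9.25 and 9.11 in spheres. In adherent cells it went from 2.21, 2.82 and 1.95 to 6.64, 6.42 and 5.57. The forms overlapped with negative siRNA and were separate with COX-2-labelled siRNA, and the difference was 3.07 ± 0.37 (adjusted p = 6.06e-06). IFNL1, a type III interferon, rose by 7.53 in spheres and 6.41 in adherent cells, a difference of 1.12 ± 0.30 (adjusted p = 0.0154). IFNA7 differed by 2.93 ± 0.22 (adjusted p = 3.93e-09), although the near-identical interferon alpha genes may share probes with it. IFNE also passed (adjusted p = 0.00269), but all but 1 of its arrays lay under 4.82 and with dim signals raised the call was lost (0.01, adjusted p = 0.465).

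Among interferon receptors, JAK and STAT proteins and IRF factors, 5 of 18 were higher in spheres and 1 was lower. Together that is 33.3% of the list, against 15.3% of all genes. IRF1, an activator of interferon and antigen presentation genes, stood at 5.46, 5.84 and 5.19 in spheres with negative siRNA and at 9.09, 8.79 and 8.58 with COX-2-labelled siRNA. In adherent cells it moved from 8.09, 8.04 and 8.14 to 8.68, 8.54 and 8.63. The sphere and adherent arrays were thus apart by −2.59 before and overlapped after, and the difference was 2.80 ± 0.25 (adjusted p = 7.69e-08). IRF2 (1.24 ± 0.16), STAT3 (0.76 ± 0.13), the receptor chain IFNAR2 (1.01 ± 0.23) and the kinase JAK2 (0.84 ± 0.20) were the other 4 higher ones. All 5 genes lay lower in spheres than in adherent cells on the DMSO arrays too, which the difference does not use. The median gap on those arrays was −0.37 over all 18 genes of the list and −0.03 over all 16295 genes.

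USP18, which switches off signalling at the type I interferon receptor, was the lower member and had the largest negative difference of all genes. Adherent arrays read 3.48, 3.57 and 3.06 with negative siRNA and 9.25, 9.35 and 8.90 with COX-2-labelled siRNA. Sphere arrays read 6.69, 6.62 and 6.65 and then 9.33, 9.25 and 9.42. Both forms reached much the same level from different starts. The difference was −3.12 ± 0.28 (adjusted p = 7.15e-08), or −1.67 with dim signals raised.

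Antiviral effector genes rose almost without exception, and their differences ran both ways. Of 32 interferon-stimulated effectors measured, 32 rose in spheres and 31 in adherent cells, against 15.8% and 6.42% of all genes. The rise was larger in spheres for 11 and larger in adherent cells for 7, so 56.2% differed, against 15.3% of all genes. The median difference of 0.09 turned to −0.03 when arrays were shifted to one median. On the negative siRNA arrays, spheres lay below adherent cells for all 11 of the first set and above them for 6 of the 7 of the second, but these arrays are part of the difference. On the DMSO arrays, which are not, spheres lay above adherent cells for 3 of the 11 and 3 of the 7.

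GBP5, a guanylate-binding protein, was the clearest case of a larger rise in spheres. It went from 2.12, 2.05 and 2.20 to 8.77, 8.97 and 9.17 there, and from 2.27, 2.60 and 2.40 to 6.02, 6.30 and 5.86 in adherent cells. The forms lay within 0.30 of each other in mean with negative siRNA and were far apart with COX-2-labelled siRNA (difference 3.21 ± 0.23, adjusted p = 2.71e-09). APOL6 (1.94 ± 0.19), the nuclear body protein SP100 (1.58 ± 0.20) and IFI35 (1.42 ± 0.18) also rose more in spheres. IFI44L ran the other way. It rose by 6.01 in adherent cells, from 3.82, 3.69 and 3.85 to 9.78, 10.05 and 9.56, and by 3.74 in spheres, from 5.74, 5.83 and 6.15 to 9.66, 9.60 and 9.69. The forms overlapped after the COX-2-labelled siRNA, and the difference was −2.27 ± 0.32 (adjusted p = 4.01e-05), or −1.23 with dim signals raised.

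Of 21 sensors of double-stranded RNA and their adaptors, 19 rose in spheres and 13 in adherent cells, and 8 were higher in spheres and 3 lower. A difference thus passed for 52.4%, against 15.3% of all genes. The number higher was 5 when arrays were shifted to one median. ZBP1, a sensor of left-handed nucleic acid helices, rose by 6.30 in spheres and 4.90 in adherent cells (difference 1.40 ± 0.20, adjusted p = 4.2e-05). IKBKE, a kinase that activates IRF factors, rose only in spheres, by 1.32. The lower members were OAS1, OAS2 and ZC3HAV1, which activate RNA degradation or bind viral RNA. OAS1 read 6.69, 6.70 and 7.07 and then 10.27, 10.39 and 9.95 in adherent cells, against 9.04, 9.15 and 9.13 and then 10.67, 10.55 and 10.71 in spheres. Spheres were higher at both ends and had the smaller rise, with a difference of −1.85 ± 0.19 (adjusted p = 5.64e-07).

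**Figure D2:**
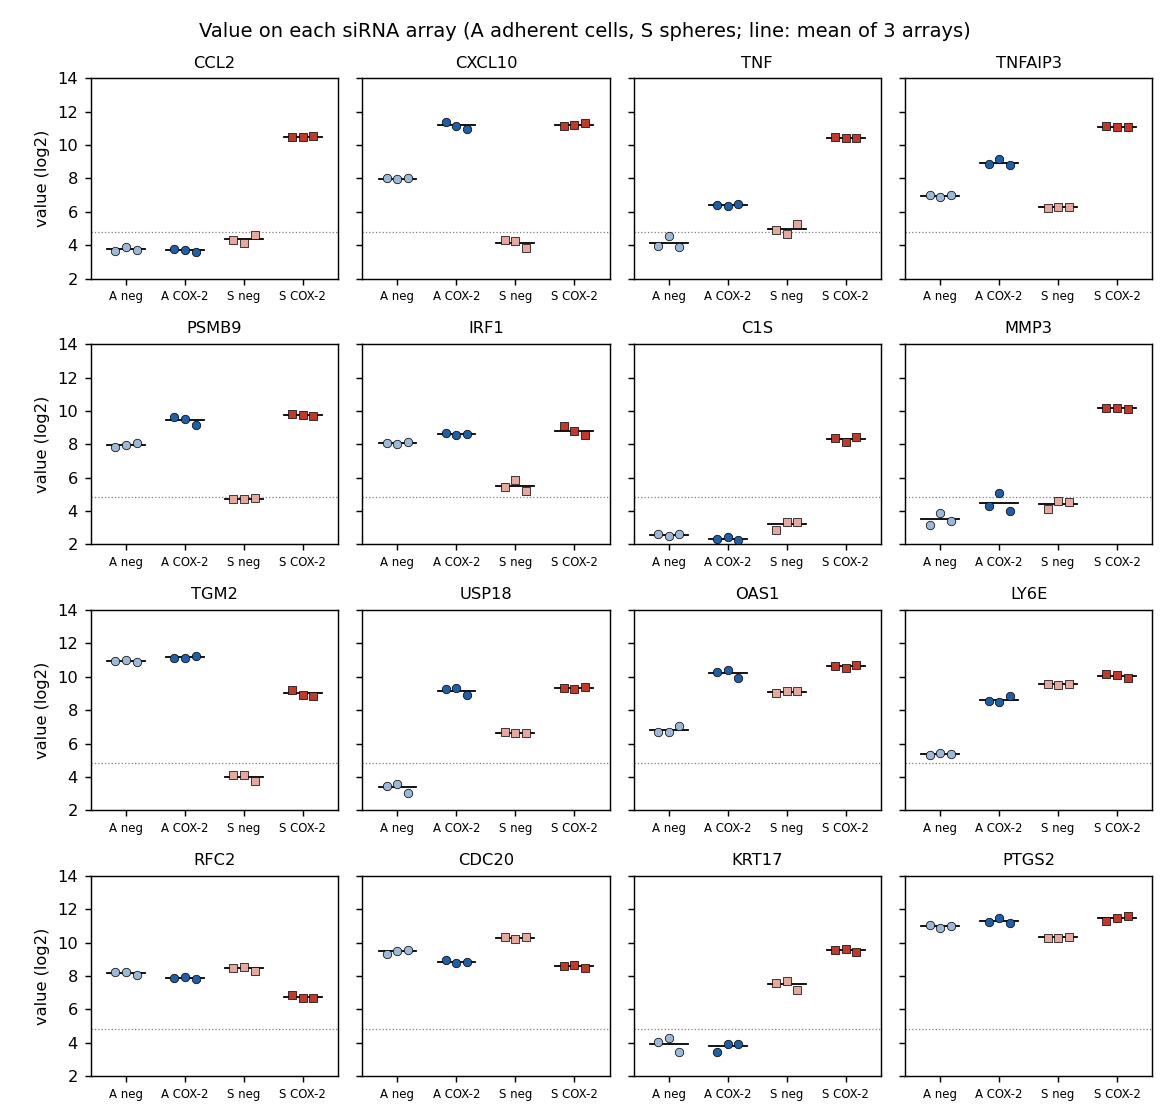
Value (log2) on each of the 12 siRNA arrays for 16 genes, with adherent cells (A, circles) and spheres (S, squares), negative siRNA in pale and COX-2-labelled siRNA in dark colours, and the mean of 3 arrays as a line. The dotted line marks 4.82, the median of all values. Only the sphere arrays labelled COX-2 siRNA are high for CCL2, C1S and MMP3, both forms end at similar levels for CXCL10, IRF1 and USP18, and RFC2 and CDC20 fall most in spheres.

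NF-kB target genes, chemokines and cytokines that differed were nearly all higher in spheres. Of 27 NF-kB subunits, feedback and target genes, 16 were higher and 1 lower (median difference 0.76), against 6.74% higher and 8.53% lower among all genes. Of 20 chemokines 10 were higher and none lower (0.78), and of 26 cytokines and their receptors 13 were higher and 1 lower (0.65).

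TNFAIP3, which ends NF-kB signalling, measured 6.24, 6.30 and 6.27 in spheres with negative siRNA and 11.14, 11.07 and 11.06 with COX-2-labelled siRNA. Adherent arrays measured 7.02, 6.87 and 7.04 and then 8.86, 9.18 and 8.82. Spheres started below adherent cells and ended above them with no overlap at either end, and the difference was 2.84 ± 0.22 (adjusted p = 9.25e-09). NFKBIZ, a nuclear cofactor of NF-kB, rose by 2.46 in spheres, while its value of 0.33 in adherent cells did not pass (adjusted p = 0.0876). The feedback gene TNIP3 and the adhesion molecule VCAM1 differed by 3.75 ± 0.25 and 3.73 ± 0.28, but 9 arrays of each were dim and the differences were 1.76 and 0.78 with dim signals raised. The adhesion molecule SELE, known from activated endothelium, behaved alike, with 3.84 ± 0.27 and 1.85.

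CXCL10, a chemokine for T cells, rose strongly in both forms to a common level. Adherent arrays went from 8.01, 7.95 and 8.02 to 11.41, 11.17 and 10.98. Sphere arrays went from 4.30, 4.24 and 3.81 to 11.12, 11.21 and 11.30. The forms were apart by −3.88 with negative siRNA and overlapped with COX-2-labelled siRNA (difference 3.90 ± 0.27, adjusted p = 1.3e-09). CXCL8, which draws neutrophils, lay between 6.82 and 7.15 with negative siRNA and between 10.95 and 11.05 with COX-2-labelled siRNA in spheres, and its adherent response of 0.35 did not pass (adjusted p = 0.21). Sphere arrays of CXCL8 thus passed from below to above all adherent arrays.

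TNF, an inducer of NF-kB itself, measured 4.93, 4.70 and 5.27 and then 10.49, 10.43 and 10.41 in spheres, against 3.97, 4.57 and 3.92 and then 6.42, 6.34 and 6.48 in adherent cells. Both forms rose and spheres were the higher at each end, with a difference of 3.22 ± 0.29 (adjusted p = 9.18e-08). TNFSF10, the death ligand TRAIL, differed by 3.01 ± 0.25, and TNFSF13B, a B cell factor, by 2.36 ± 0.20. IL6 differed by 3.06 ± 0.24, of which 1.55 was left with dim signals raised. CSF2, a growth factor of granulocytes and macrophages, was the lower cytokine and rose only in adherent cells, by 1.64 (difference −1.42 ± 0.33, adjusted p = 0.00553).

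Genes of antigen processing and MHC class I were higher in spheres for 9 of 16 and lower for 1, with a median difference of 0.94. These make up 62.5% of the list, against 15.3% of all genes. PSMB9, a subunit of the immunoproteasome, stood at 4.74, 4.71 and 4.80 in spheres with negative siRNA and at 9.81, 9.73 and 9.72 with COX-2-labelled siRNA. In adherent cells it went from 7.85, 7.96 and 8.07 to 9.61, 9.50 and 9.19. Spheres were lowest before and highest after, without overlap, and the difference was 3.53 ± 0.18 (adjusted p = 1.26e-11). TAP1, which carries peptides into the endoplasmic reticulum, moved the gap between forms from −2.36 to 0.14 (difference 2.50 ± 0.16, adjusted p = 5.18e-10). NLRC5, an activator of MHC class I genes, differed by 2.51 ± 0.19 and the peptide editor TAPBPL by 1.79 ± 0.18. On the DMSO arrays, 8 of the 9 higher genes were lower in spheres than in adherent cells. The 1 member with a lower response also lay below there. The median DMSO gap was −1.59 over all 16 genes of the list and −0.03 over all 16295 genes. CANX, a chaperone of the endoplasmic reticulum, was the member that was lower in spheres (−0.36 ± 0.12, adjusted p = 0.0372), a call lost in 12 of the 22 alternative settings.

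Among checkpoint and costimulation genes 5 of 14 were higher in spheres, and 3 to 6 were over the alternative settings. With the 1 lower gene, 42.9% of the list passed, against 15.3% of all genes. CD276, an inhibitory ligand, rose by 0.85 in spheres and had a value of −0.30 in adherent cells that did not pass (difference 1.15 ± 0.24, adjusted p = 0.00224). LGALS9, a galectin that binds T cell receptors of the TIM family, was the single lower one. It went from 6.49, 6.60 and 6.61 to 9.89, 10.24 and 9.77 in adherent cells and from 7.99, 8.05 and 8.09 to 10.03, 9.93 and 9.84 in spheres. The forms overlapped after the COX-2-labelled siRNA, and the difference was −1.51 ± 0.20 (adjusted p = 2.36e-05). IDO1, which breaks down tryptophan, rose in both forms (5.39 in spheres, 2.73 in adherent cells). Its difference of 2.66 ± 0.21 rests on sphere values of 2.26 to 2.63 with negative siRNA, and 0.33 remained with dim signals raised (adjusted p = 0.119).

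Matrix metalloproteinases, other secreted proteases and their inhibitors were higher in spheres for 10 of 27 and lower for 2. Passing members were 44.4% of the list, against 15.3% of all genes. MMP3, a collagenase activator, measured 4.14, 4.59 and 4.55 and then 10.20, 10.17 and 10.11 in spheres, against 3.19, 3.91 and 3.40 and then 4.33, 5.10 and 3.98 in adherent cells. Only the sphere arrays labelled COX-2 siRNA were clearly bright, and the difference was 4.76 ± 0.37 (adjusted p = 8.83e-09). MMP13 differed by 3.00 ± 0.28 and MMP19 by 2.07 ± 0.20. PLAU, the urokinase plasminogen activator, rose by 2.25 in spheres and 0.41 in adherent cells, and its gap between forms went from −2.29 to −0.45.

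Matrix and integrin genes differed in both directions, with 7 of 42 higher and 9 lower (5 to 10 and 6 to 12 over the settings). That makes 38.1% passing, against 15.3% of all genes. FN1, which encodes fibronectin, rose from 8.92, 8.87 and 8.77 to 11.34, 11.10 and 11.10 in spheres and from 10.38, 10.53 and 10.26 to 11.25, 11.13 and 11.37 in adherent cells. Both forms ended at an overlapping level (difference 1.47 ± 0.15, adjusted p = 5.64e-07). The integrin chain ITGB6 rose by 1.67 in spheres and 0.53 in adherent cells. ITGB8, another integrin chain, rose more in adherent cells (4.17 against 1.85), but it was dim there with negative siRNA and its difference of −2.33 ± 0.40 became −0.72 with dim signals raised (adjusted p = 0.129). HSPG2, the basement membrane proteoglycan perlecan, fell only in adherent cells, by 0.68.

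In the list of EGF receptor and FGF-ERK pathway genes 8 of 27 were higher in spheres and 1 was lower (7 to 10 and 0 to 5 over the settings). A share of 33.3% passed, against 15.3% of all genes. FGF2, a growth factor that was also an additive of the sphere medium, went from 4.60, 4.92 and 4.87 to 10.04, 10.07 and 10.24 in spheres and from 7.01, 6.99 and 7.25 to 9.11, 9.04 and 9.13 in adherent cells. Spheres passed from below to above adherent cells without overlap, and the difference was 3.31 ± 0.18 (adjusted p = 3.97e-11). SPRY1, a feedback inhibitor of that pathway, rose only in spheres (difference 1.64 ± 0.18).

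In the TGF-beta and BMP list 4 of 29 were higher and 3 lower (2 to 6 and 2 to 5 over the settings). In this list 24.1% passed, as did 34.5% of the Notch and Wnt list and 25% of the semaphorin list. Among all genes 15.3% passed, 6.74% higher and 8.53% lower. INHBA, the activin subunit, rose from 8.24, 8.13 and 8.30 to 11.26, 10.97 and 10.85 in spheres, and its adherent value of −0.44 did not pass (difference 3.25 ± 0.22, adjusted p = 1.09e-09). BMP4 fell by 1.75 in spheres only. Both genes differed between forms in level already with negative siRNA, INHBA by 3.92 and BMP4 by −1.32. Of Notch and Wnt genes 6 of 29 were higher and 4 lower (3 to 9 and 2 to 5 over the settings); the ligand JAG1 rose more in spheres (1.59 against 0.58), and the Notch target HEY1 rose more in adherent cells (1.96 against 0.99). SEMA3A, a secreted guidance factor, rose strongly in both forms, by 7.27 in spheres and 5.05 in adherent cells (difference 2.23 ± 0.21, adjusted p = 2.27e-07, or 1.31 with dim signals raised). Of 20 semaphorin genes and receptors 4 were lower (2 to 5 over the settings), among them SEMA3D (−1.31 ± 0.19, or −0.41 with dim signals raised).

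Genes of DNA replication and cell division fell more in spheres, with no exception in direction among those that passed. Of 47 genes of the G1/S transition and DNA replication, 37 were lower in spheres and none higher, with a median difference of −0.87. Of 48 genes of G2/M and mitosis, 27 were lower and none higher (−0.71). Of 19 homologous recombination and Fanconi genes, 13 were lower and none higher (−0.75). The 3 shares were 78.7%, 56.2% and 68.4%, against 8.53% lower among all genes. Over the alternative settings these lower counts ran from 34 to 44, from 23 to 45 and from 10 to 16. The 45 mitosis genes were reached with array weights, which raised the count over all genes too. In spheres 43 of the 47 replication genes and 46 of the 48 mitosis genes fell by the test, against 14 and 10 in adherent cells. Among all genes 23.3% fell in spheres and 8.59% in adherent cells.

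RFC2, a subunit of the clamp loader, measured 8.51, 8.55 and 8.31 in spheres with negative siRNA and 6.85, 6.68 and 6.70 with COX-2-labelled siRNA. In adherent cells it measured 8.23, 8.23 and 8.07 and then 7.87, 7.92 and 7.84. Spheres were the brightest group before and the dimmest after, without overlap, and the difference was −1.41 ± 0.16 (adjusted p = 2.28e-06). The replicative helicase subunit MCM3 fell by 1.44 in spheres, and its adherent value of −0.11 did not pass (adjusted p = 0.647). The cell cycle activators E2F1 and E2F2 fell in both forms, by 1.75 and 1.66 in spheres and by 0.60 and 0.37 in adherent cells.

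CDC20, which activates the anaphase-promoting complex, measured 10.34, 10.23 and 10.33 and then 8.59, 8.67 and 8.50 in spheres, against 9.32, 9.53 and 9.58 and then 8.98, 8.76 and 8.84 in adherent cells. It fell in both forms and by more in spheres, which went from the brightest to the dimmest group (difference −1.10 ± 0.14, adjusted p = 1.1e-05). The centromeric histone CENPA (−1.25 ± 0.18), the kinetochore subunit SPC24 (−1.28 ± 0.21) and the condensin subunit NCAPG (−1.02 ± 0.16) differed in the same direction. Among repair genes the BRCA1 partner BARD1 fell by 1.13 and the nuclease EXO1 by 1.17 in spheres, and neither passed in adherent cells. The checkpoint kinase CHEK1 differed by −0.83 ± 0.19 (adjusted p = 0.00549).

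The DMSO arrays place these falls beside another control, although agent, time and plating differ and cannot be told apart. In spheres the negative siRNA mean lay above the DMSO mean for 47 of 47 replication genes, by a median of 1.52, and the COX-2-labelled mean for 43 of 47, by 0.57. For mitosis genes these were 48 of 48 (1.36) and 43 of 48 (0.51). In adherent cells the medians were 0.37 and 0.17 for replication genes and −0.07 and −0.23 for mitosis genes. So the sphere arrays labelled COX-2 siRNA were below the negative siRNA arrays and above the DMSO arrays for most of these genes. Among all genes higher in spheres, the sphere negative siRNA mean was below the DMSO mean for 71.5%, against 45.4% of all 16295 genes, and among those lower in spheres for 20.7%, though the negative siRNA arrays took part in choosing them.

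**Figure D3:**
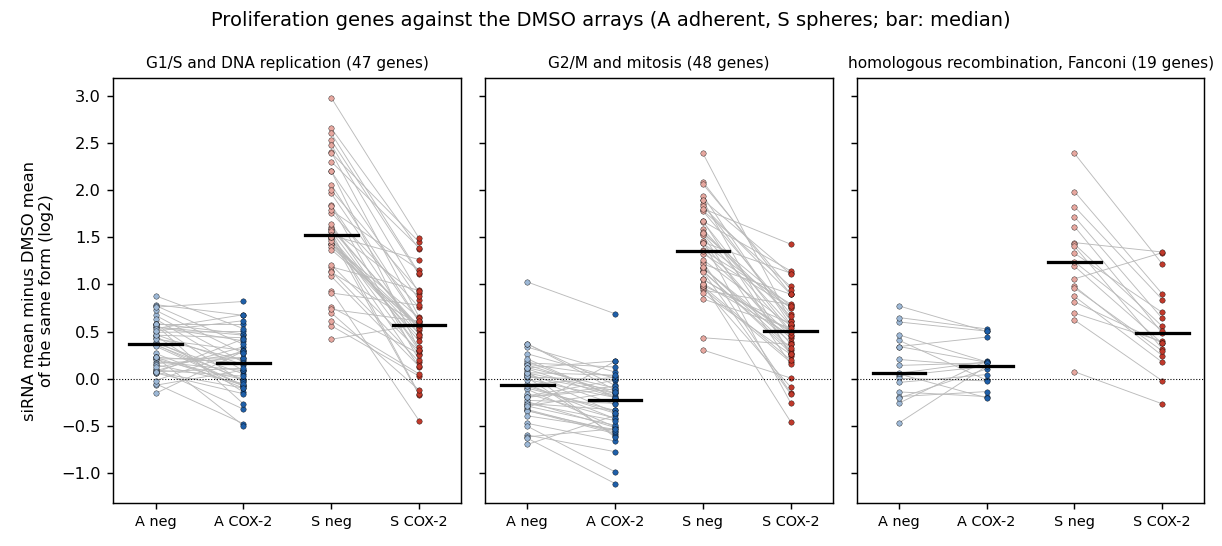
Mean of each siRNA group minus the DMSO mean of the same culture form (log2, means of 3 arrays) for 47 replication, 48 mitosis and 19 recombination and Fanconi genes, with 1 point per gene, lines joining the 2 siRNA groups of a form and bars at the medians. In spheres (S) the medians go from 1.52 to 0.57, from 1.36 to 0.51 and from 1.24 to 0.49, and in adherent cells (A) all lie between −0.23 and 0.37.

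Cyclin-dependent kinase inhibitors and p53 target genes were higher in spheres for 9 of 25 and lower for 3 (8 to 12 and 1 to 4 over the settings). This is 48% of the list, against 15.3% of all genes. The lower ones were the kinase inhibitor CDKN2C (−0.95), RRM2B (−0.71) and FAS (−0.66). The calls of RRM2B and FAS were lost in 8 and 11 of the 22 alternative settings. CDKN2B, the inhibitor p15, went from 7.19, 7.22 and 7.51 to 9.10, 8.94 and 8.78 in spheres and overlapped between siRNAs in adherent cells, where it lay at 5.83 to 6.39 (difference 1.60 ± 0.23, adjusted p = 5.72e-05). BTG2, an antiproliferative gene, rose in spheres only (difference 1.58 ± 0.26), as did SESN2, a stress sensor of amino acid supply (1.41 ± 0.15). TP53INP1, a p53-induced gene, rose by 0.83 in spheres and fell by 0.60 in adherent cells. Immediate early genes were higher in spheres for 12 of 26 (46.2%, against 6.74% of all genes) and lower for none (median 0.63). ATF3 rose by 2.47 in spheres and 0.78 in adherent cells, the AP-1 subunit JUNB rose only in spheres (0.85), and ZFP36, which degrades cytokine mRNAs, rose by 0.70 in spheres and fell by 0.53 in adherent cells.

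Of 25 apoptosis regulators 5 were higher and 2 lower (4 to 6 and 2 to 5 over the settings). So 28% passed, against 15.3% of all genes, and the share of lower ones lay near the 8.53% among all genes. GSDMD, the pore-forming gasdermin, rose by 2.23 in spheres and 1.15 in adherent cells (difference 1.07 ± 0.15, adjusted p = 2.73e-05). CASP4, an inflammatory caspase, differed by 2.95 ± 0.19, or 0.92 with dim signals raised. The executioner caspase CASP6 fell by 1.03 in spheres only, and CASP10 rose by 0.63 in adherent cells only.

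Target genes of the stress factor ATF4 split, with 10 of 29 higher and 4 lower (8 to 11 and 3 to 6 over the settings). Both directions together are 48.3% of the list, against 15.3% of all genes. Besides SESN2 and ATF3, the lipoprotein receptor VLDLR was higher, with a rise of 0.73 in spheres and a fall of 0.71 in adherent cells. PHGDH, the first enzyme of serine synthesis, was lower, at 9.65, 9.61 and 9.99 and then 8.50, 8.76 and 8.52 in spheres, with an adherent value of −0.11 that did not pass. CTH, an enzyme of cysteine synthesis, fell by 1.99 in spheres and 0.48 in adherent cells. The genes with larger sphere falls in this list thus included amino acid synthesis enzymes. HERPUD1, of the degradation machinery of the endoplasmic reticulum, had the opposite course in the 2 forms. It went from 7.34, 7.47 and 7.58 to 8.51, 8.42 and 8.40 in spheres and from 8.50, 8.42 and 8.72 to 7.89, 7.80 and 7.89 in adherent cells. The gap between forms changed from −1.08 to 0.58 (difference 1.67 ± 0.18, adjusted p = 1.23e-06). Of 28 genes of endoplasmic reticulum chaperones and the unfolded protein response, 4 were higher and 5 lower (3 to 5 and 3 to 7 over the settings). Their passing share was 32.1%.

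Metabolic genes that differed were mostly lower in spheres. Of 16 cholesterol genes 5 were lower and none higher, of 21 fatty acid genes 8 were lower and 1 higher, and of 18 genes of the tricarboxylic acid cycle 5 were lower and none higher. Over the alternative settings these lower counts ran from 3 to 6, from 4 to 10 and from 3 to 9. The shares passing in either direction were 31.2%, 42.9% and 27.8%, against 15.3% of all genes. MVK, an early enzyme of the cholesterol pathway, fell by 0.89 in spheres, and its adherent value of −0.14 did not pass (difference −0.75 ± 0.17, adjusted p = 0.00383). HSD17B7, a later enzyme of that pathway, fell by 1.44 in spheres and 0.72 in adherent cells. LPIN1, a phosphatidate phosphatase, fell by 0.97 in spheres only (difference −1.43 ± 0.24, adjusted p = 0.00026). The mitochondrial isocitrate dehydrogenase IDH2 fell from 9.44, 9.54 and 9.43 to 8.41, 8.58 and 8.57 in spheres, and its adherent value of −0.15 did not pass. FADS2, a fatty acid desaturase, was the single higher gene of these lists, with a fall in adherent cells only, by 0.93, and its call was lost in 10 of the 22 alternative settings.

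Of 26 targets of the antioxidant factor NRF2, 8 were lower and 1 higher, and 5 to 13 were lower over the alternative settings. The passing genes are 34.6% of the list, against 15.3% of all genes. GPX2, a glutathione peroxidase, went from 8.27, 8.38 and 8.10 to 6.95, 6.83 and 6.71 in spheres (difference −1.13 ± 0.21, adjusted p = 0.000622). PIR fell in both forms, by 1.44 in spheres and 0.84 in adherent cells. SLC7A11, the cystine transporter, was the higher member, through a fall of 0.74 in adherent cells only. Glycolysis and hypoxia genes gave 3 higher and 5 lower of 33 (3 to 15 lower over the settings), among them the carbonic anhydrase CA9 with a fall of 1.28 in spheres only. In that list 24.2% passed.

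Few genes of the ribosome and of oxidative phosphorylation passed. Of 29 ribosomal protein genes 1 was lower and none higher (0 to 3 lower over the settings), and of 31 subunits of oxidative phosphorylation 2 were lower (1 to 11 over the settings). Both shares lay under the 8.53% of all genes that were lower. Of 35 ribosome biogenesis genes 6 were lower (3 to 14 over the settings), among them the polymerase I subunit POLR1E (−0.68 ± 0.14, adjusted p = 0.0023). Of 23 autophagy and lysosome genes only GABARAPL1 passed (0.71 ± 0.19), and not with arrays shifted to one median. YAP targets (4 of 22 higher, 5 lower), aryl hydrocarbon receptor genes (1 of 11 higher, 1 lower) and regulators of epithelial and mesenchymal state (3 of 26 higher, 2 lower) had passing members in both directions. The shares passing were 40.9%, 18.2% and 19.2%, against 15.3% of all genes, so the last 2 lay near that share. Over the settings these lists had 2 to 5 higher and 4 to 9 lower, 1 higher and 1 lower, and 2 to 5 higher and 0 to 8 lower.

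Epithelial identity genes differed in a few members. Of 21 basal epithelial genes 5 were higher in spheres and none lower (4 to 6 and 0 to 4 over the settings), and the median over the list was −0.02. The 5 are 23.8% of the list, against 6.74% higher among all genes. KRT17, a keratin of basal and injured epithelium, went from 7.61, 7.68 and 7.19 to 9.54, 9.64 and 9.45 in spheres and lay at 3.43 to 4.31 on all adherent arrays (difference 2.21 ± 0.33, adjusted p = 7e-05). KRT6A, an injury keratin, went from 10.43, 10.19 and 10.03 to 11.92, 11.82 and 11.87 in spheres, with an adherent value of −0.13 that did not pass. Both keratins lay higher on the sphere DMSO arrays than with negative siRNA, at means of 9.95 and 11.21. KRT5 passed (1.01 ± 0.27) because it was lower in adherent cells, where all values were dim, and the call was lost with dim signals raised (0.19, adjusted p = 0.625).

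Of 20 urothelial luminal genes 2 were higher and none lower, with 2 to 7 higher and 0 to 3 lower over the alternative settings. The 2 are 10% of the list, near the 6.74% of all genes that were higher. ELF3, an epithelial ETS factor, rose from 5.54, 5.52 and 5.19 to 7.28, 7.02 and 7.05 in spheres and stayed between 8.46 and 8.66 in adherent cells (difference 1.63 ± 0.21, adjusted p = 1.46e-05). GATA3, a urothelial transcription factor, rose by 1.05 in spheres only. SOX2, a stem cell factor, went from 8.64, 8.72 and 8.82 to 10.17, 10.19 and 10.02 in spheres, above all adherent values of 4.36 to 5.35 (difference 1.74 ± 0.30, adjusted p = 0.000448). Among 22 stem cell markers 3 were higher and 2 lower (2 to 6 and 0 to 2 over the settings), and MYC was another of the higher ones (0.82 ± 0.16). Passing in either direction were 22.7% of these markers and 20% of 25 epidermal differentiation genes, against 15.3% of all genes. Of 25 epidermal differentiation genes 3 were higher and 2 lower (2 to 5 and 1 to 2 over the settings), among them IVL with a rise of 0.97 in spheres only and TGM1 with a rise of 1.31 in adherent cells only. Outside that list LORICRIN, of the cornified envelope, fell from 6.49, 6.83 and 7.39 to 5.01, 4.68 and 4.79 in spheres (difference −2.04 ± 0.41, adjusted p = 0.00168).

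**Figure D4:**
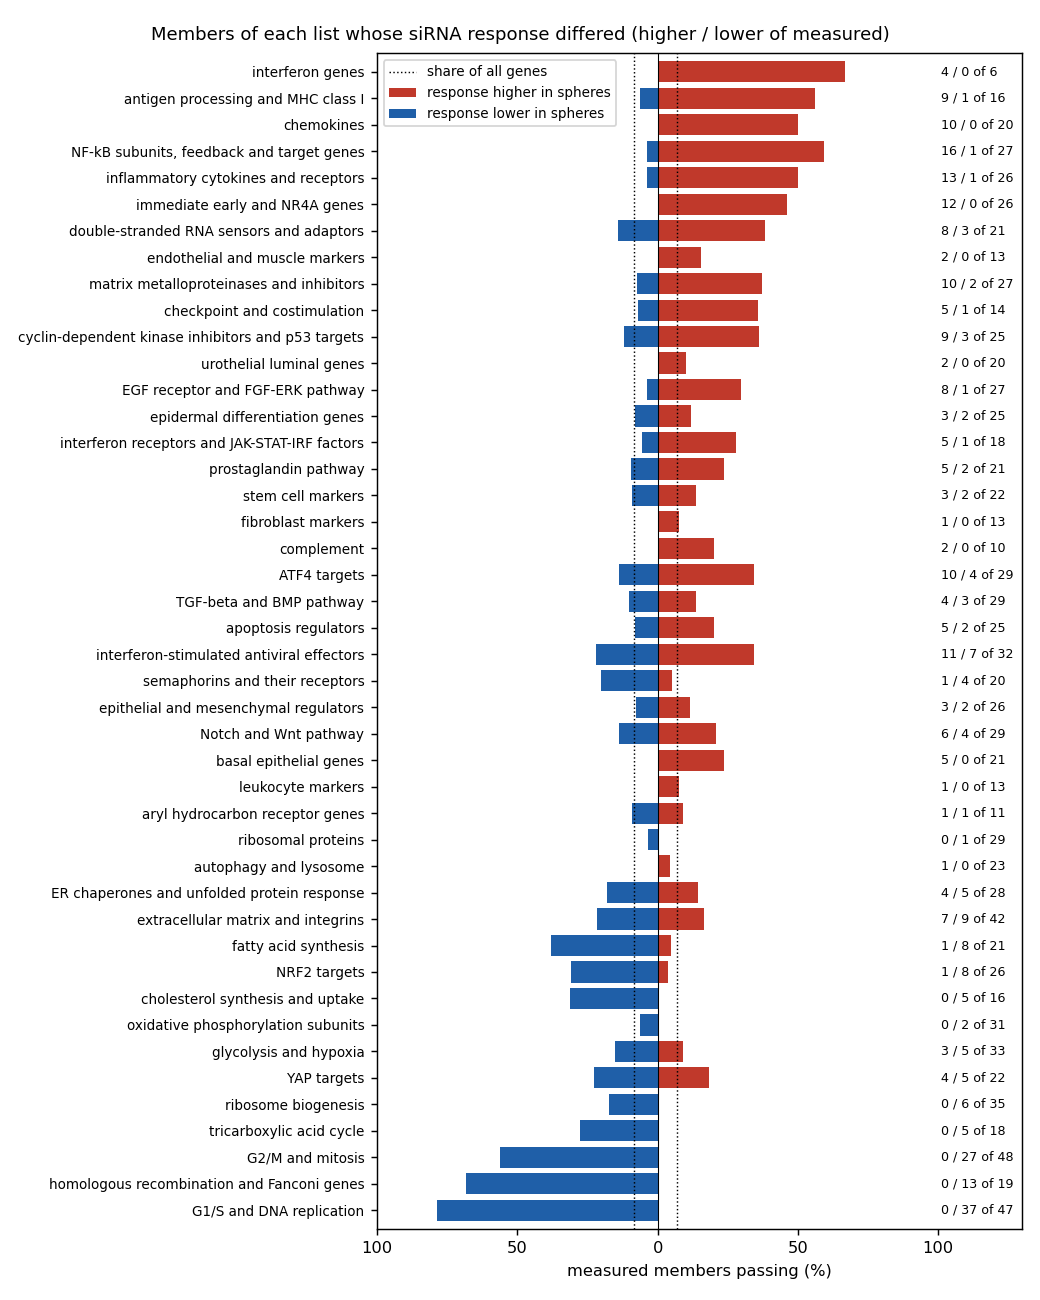
Share of the measured members of each of 44 gene lists whose siRNA response was higher (red, right) or lower (blue, left) in spheres, in percent, with the counts at the right and the shares among all genes (6.74% and 8.53%) as dotted lines. Interferon, NF-kB, antigen processing, chemokine and cytokine lists are at the top, and the replication, recombination and mitosis lists at the bottom hold only lower responses.

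A smaller set of genes responded mainly in adherent cells. LY6E, an interferon-induced surface protein, went from 5.32, 5.43 and 5.36 to 8.56, 8.50 and 8.83 in adherent cells and from 9.60, 9.52 and 9.57 to 10.18, 10.12 and 9.92 in spheres. Spheres were higher throughout, and the difference was −2.75 ± 0.22 (adjusted p = 1.18e-08). MCOLN2, a lysosomal cation channel, went from 4.99, 5.36 and 5.29 to 8.40, 8.31 and 8.43 in adherent cells, while spheres stayed between 2.26 and 3.25 (difference −2.70 ± 0.29, adjusted p = 1.17e-06). PLA2R1, a phospholipase receptor, rose by 3.16 in adherent cells only, to values near those of spheres. Its difference of −2.75 ± 0.34 became −1.06 with dim signals raised. BCL2L15, of the BCL-2 family, rose by 2.96 in adherent cells and 0.84 in spheres. All its sphere values lay under 4.82, so the rise there may be background. With dim signals raised the difference moved from −2.12 to −2.41.

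SPINK5, a protease inhibitor of stratified epithelium, went from 6.89, 6.93 and 7.19 to 4.79, 4.82 and 5.39 in adherent cells and from 11.47, 11.47 and 11.28 to 10.69, 10.92 and 10.85 in spheres (difference 1.42 ± 0.22, adjusted p = 0.000101). METTL7B fell by 1.79 and the GTPase RHOV by 1.21 in adherent cells only, both from levels above those of spheres. Among genes that moved in opposite directions, EDNRA, the endothelin A receptor, went from 5.58, 5.25 and 4.94 to 7.18, 6.52 and 6.70 in spheres and from 3.05, 3.42 and 3.30 to 2.78, 2.54 and 2.31 in adherent cells. All its adherent values lay under 4.82, so the fall there may be background. With dim signals raised the difference moved from 2.26 to 1.54. The amino acid transporter SLC43A2 rose by 1.83 in spheres and fell by 0.73 in adherent cells.

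Among the 2489 genes, the one listed as LOC486151 had the largest fall in spheres, from 7.75, 7.61 and 7.37 to 4.95, 3.73 and 4.05 in spheres, against 6.89, 7.25 and 6.99 and then 6.22, 6.44 and 6.23 in adherent cells (difference −2.59 ± 0.29, adjusted p = 2.21e-06). BARX2, a homeobox factor, fell by 1.75 in spheres only. COLEC12, a scavenger receptor, fell by 2.03 in spheres only and was dim in adherent cells.

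In the prostaglandin pathway itself 5 of 21 genes were higher in spheres and 2 lower, with 3 to 6 higher and 1 to 4 lower over the alternative settings. That amounts to 33.3%, against 15.3% of all genes. Besides PTGS2, the prostaglandin E synthase PTGES rose by 0.78 in spheres (difference 1.03 ± 0.27, adjusted p = 0.0123) from values of 3.52 to 4.08, against 8.81 to 9.20 on the adherent arrays. With dim signals raised that call was lost (0.30, adjusted p = 0.498). The receptor gene PTGER2 rose from 8.31, 8.21 and 8.14 to 9.20, 9.25 and 9.22 in spheres, and its adherent values were dim (difference 1.56 ± 0.35, adjusted p = 0.00383, or 1.00 with dim signals raised). AKR1B1, an aldo-keto reductase with prostaglandin F synthase activity, fell by 0.80 in spheres only. HPGD, which inactivates prostaglandins, passed as lower (−1.28 ± 0.33), and PTGDR, a prostaglandin D receptor, as higher (1.15 ± 0.25), but neither call held with dim signals raised (−0.26 and 0). The fifth higher gene was the exporter ABCC4, which fell by 0.81 in adherent cells only. Its call was lost with arrays shifted to one median and without the second adherent negative siRNA array.

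Markers of other cell types differed in few cases. Of 13 leukocyte markers 1 was higher, of 13 fibroblast markers 1 and of 13 endothelial and muscle markers 2, and none were lower. The higher genes were NCAM1, COL1A2, CLDN5 and MYOCD. The shares are 7.69%, 7.69% and 15.4%, against 6.74% higher among all genes. The mean over the leukocyte list was 3.39 to 3.91 on all 12 arrays, that over the fibroblast list 3.57 to 3.75 in adherent cells and 4.57 to 4.86 in spheres, and that over the endothelial and muscle list 3.22 to 3.95. Above 4.82 lay 2 leukocyte markers in both adherent groups and in spheres with negative siRNA, and 3 in spheres with COX-2-labelled siRNA. Of the fibroblast markers 1 did so in the adherent groups, and 4 and 5 did in spheres, with negative siRNA first. Of the endothelial and muscle markers 1 did so in spheres with COX-2-labelled siRNA and none in the other siRNA groups. The calls for NCAM1, COL1A2 and CLDN5 were lost with dim signals raised (0.16, 0 and 0.19), and MYOCD kept a difference of 1.37. PTPRC, PECAM1 and DCN, markers of leukocytes, endothelium and fibroblasts, lay at 2.06 to 2.93 in every siRNA group. Other fibroblast markers were brighter. PDGFRA had group means of 7.69 to 9.34, and COL3A1 of 6.18 and 6.07 in spheres against 4.45 and 4.16 in adherent cells, each with negative siRNA first. COL1A1 had group means of 4.71 and 4.89 in spheres and lay under 4.82 in both adherent groups. The part of other cells in the results was not tested.

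The same difference between culture forms was taken for mavacoxib against DMSO, on the 12 arrays that the siRNA difference does not use. For mavacoxib 1680 genes passed (10.3%). Of the siRNA genes 552 were among them, which is 22.2% of the siRNA genes and 32.9% of the mavacoxib genes. Of these, 304 had the same direction (164 higher, 140 lower) and 248 the opposite one. The siRNA difference minus the mavacoxib difference passed for 1879 genes (11.5% of all), and for 1119 (45%) of those with a differing siRNA response, which share the siRNA arrays with it. Agent and time differ between these experiments and cannot be told apart.

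Proliferation genes had opposite differences with the 2 agents. For mavacoxib 30 of 47 replication genes were higher in spheres and none lower (median 0.65), against none and 37 for the siRNA. For mitosis genes these were 26 and none (median 0.58), against none and 27. Among all genes 4.49% were higher and 5.82% lower for mavacoxib. The siRNA minus mavacoxib difference passed as lower for 42 of 47 replication and 40 of 48 mitosis genes, against 5.66% of all genes. MCM3 had a mean of 8.68 with DMSO and 8.05 with mavacoxib in adherent cells, against 7.57 and 7.94 in spheres. With mavacoxib it thus fell in adherent cells (−0.63, adjusted p = 0.00648) and rose in spheres (0.37, adjusted p = 0.048), while with the COX-2-labelled siRNA it fell in spheres, and the siRNA minus mavacoxib difference was −2.33 ± 0.27 (adjusted p = 5.29e-06). Cholesterol genes also opposed, with 13 of 16 higher for mavacoxib and none for the siRNA. INSIG1, the sterol feedback regulator, had a mavacoxib difference of 2.46 ± 0.18 and an siRNA difference of −0.64 ± 0.18 (adjusted p = 0.0196). Without the third adherent array labelled COX-2 siRNA that siRNA call was lost.

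Some immune genes had high differences with both agents, though the mavacoxib differences of immune lists ran both ways. For mavacoxib 10 of 27 NF-kB genes were higher and 2 lower, and of 32 antiviral effectors 8 and 5. Of 20 chemokines 4 were higher and 3 lower, and of 21 double-stranded RNA sensors and adaptors 2 and 3. The shares of all genes were 4.49% higher and 5.82% lower. CXCL10 measured 4.25, 4.37 and 4.14 in spheres with DMSO and 6.96, 7.94 and 7.86 with mavacoxib, while adherent arrays fell from 7.78, 7.69 and 7.86 to 7.09, 7.06 and 6.70. Its mavacoxib difference of 4.16 ± 0.27 and its siRNA difference of 3.90 ± 0.27 were not told apart (−0.26 ± 0.38, adjusted p = 0.752). IRF1 had the larger mavacoxib difference (4.24 ± 0.25 against 2.80 ± 0.25, adjusted p = 0.00904 for siRNA minus mavacoxib). The retinoic acid and interferon responsive gene PLAAT4 also rose in spheres with each agent, by 7.24 with the siRNA and 2.82 with mavacoxib.

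CGA, CCL2, KCNJ15, DIO2 and C1R had the largest positive siRNA minus mavacoxib differences. CGA measured 3.82, 3.62 and 3.99 in spheres with DMSO and 3.29, 3.47 and 3.31 with mavacoxib, against 4.95, 5.03 and 4.59 with negative and 11.12, 11.31 and 11.27 with COX-2-labelled siRNA. Only the latter arrays were bright (siRNA minus mavacoxib 5.68 ± 0.29, adjusted p = 2.65e-11). KCNJ15, a potassium channel, rose by 3.16 with the siRNA and fell by 1.90 with mavacoxib in spheres. CCL2 measured 8.77, 8.85 and 8.53 with DMSO in spheres, well above the negative siRNA arrays. The sphere mean with COX-2-labelled siRNA was 10.50, so the size of its siRNA response depends on the negative siRNA arrays lying at a mean of 4.35.

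LPIN1, NR4A1, ISG15, DEFB1 and INSIG1 had the largest negative siRNA minus mavacoxib differences. LPIN1 rose by 1.86 in spheres with mavacoxib and fell by 0.97 with the siRNA. For the nuclear receptor NR4A1 (adjusted p = 0.0791), the ubiquitin-like effector ISG15 (adjusted p = 0.18) and the defensin DEFB1 (adjusted p = 0.244) the siRNA difference alone did not pass, with values of −0.81 ± 0.30, −0.61 ± 0.30 and 0.45 ± 0.25. With dim signals raised these uncalled values were 0.05, 0.53 and 0. ISG15 rose by 3.81 in spheres and 4.41 in adherent cells with the siRNA, and by 3.58 in spheres only with mavacoxib.

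**Figure D5:**
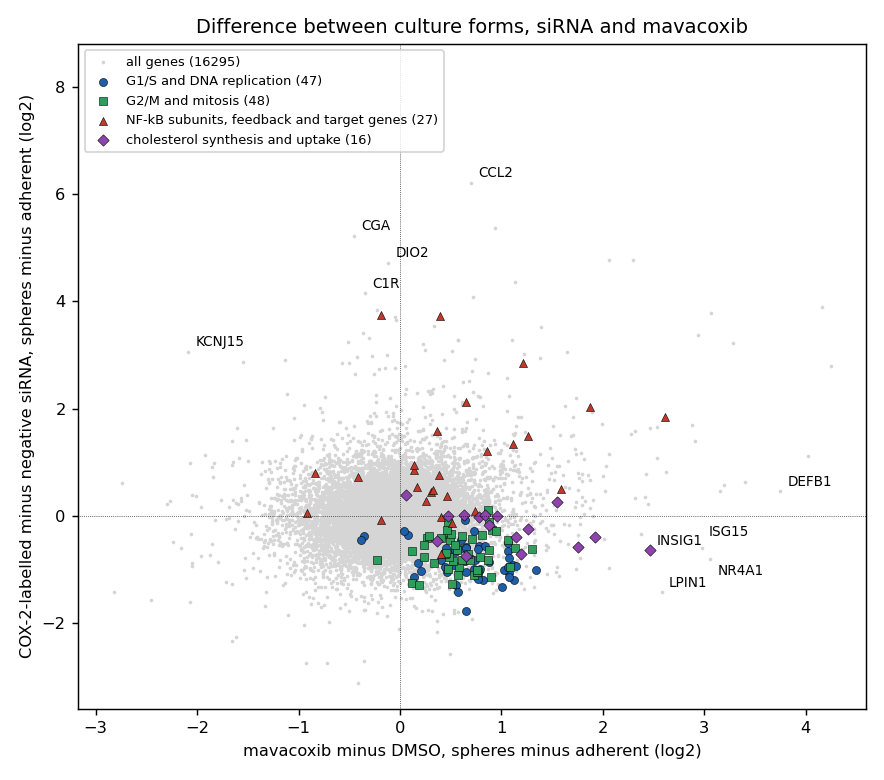
Difference between culture forms (spheres minus adherent cells, log2) of the mavacoxib effect on the horizontal axis and of the siRNA response on the vertical axis for 16295 genes, from separate sets of 12 arrays. Replication (blue) and mitosis (green) genes lie to the right and below 0, with medians of 0.65 and −0.87 and of 0.58 and −0.71, NF-kB genes (red) lie mostly above 0, and the 10 genes with the largest siRNA minus mavacoxib differences are named.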

How the data were processed

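The deposited values are log2 signals, 1 per feature and array, and were made by the authors with Affymetrix Expression Console 1.1, per the submitters' processing notes. How features were summarised and normalized is not given in the sources used here. Of 27766 features 16878 carried 1 symbol of the platform annotation, 289 several and 10599 none. For 521 genes the brightest of several features was used, which left 16295 genes without a filter on intensity.

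The means of the 8 groups were estimated together from all 24 arrays, which then share 1 estimate of spread, using limma (version 3.58.1, under R version 4.3.3) with lmFit, contrasts.fit and eBayes. Tests were two-sided, each adjusted p is a Benjamini-Hochberg value over 16295 genes, and ± is a standard error of the fit. A response or difference passed at an adjusted p under 0.05. The number of arrays limits the precision. In simulated data of this comparison on 16295 genes, differences of 0.5, 1 and 2 were given to 67, 67 and 66 genes. Of these, 2.99%, 59.7% and 97% were recovered, with 4 false among 110 calls. Far fewer genes differed there than passed in the data, which makes the cutoff stricter. Recovery at the share of genes seen in the data was not tested.

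The members and the 44 gene lists were chosen with earlier results of these data known. Named genes were drawn by a rule from PTGS2, the 15 largest passing differences in each direction and the 5 largest of each response pattern with separated arrays, in each list up to 4 passing genes by smallest adjusted p, the 5 largest siRNA minus mavacoxib differences in each direction, and members of counts of 5 or fewer. The rule gave 245 genes, and not all of them are printed here. Same-numbered arrays were checked for shared deviations: 2 of 6 pairs correlated above 0.1 (−0.0972 to 0.1961), so the numbers were not taken to pair the arrays. Normalization, dim genes, features, arrays in the fit, variance model, array weights, a replicate block and each siRNA array were varied. Sequences were not used here.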

Additional observations from a re-analysis of the deposited data

Results flagged for a closer look

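The response to the COX-2-labelled siRNA differed between culture forms for 2489 genes, and the siRNA and mavacoxib differences differed from each other for 1879. The largest differences between forms stand out for their size. They were 6.21 for CCL2, 5.37 for C1S, 5.22 for CGA, 4.77 for TGM2 and 4.76 for MMP3, all higher in spheres. On the other side were −3.12 for USP18, −2.75 for PLA2R1, −2.75 for LY6E, −2.70 for MCOLN2 and −2.59 for LOC486151.

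The siRNA difference exceeded the mavacoxib difference most for CGA (5.68), CCL2 (5.51), KCNJ15 (5.15), DIO2 (4.83) and C1R (4.50). It fell short of it most for LPIN1 (−4.01), NR4A1 (−3.86), ISG15 (−3.58), DEFB1 (−3.29) and INSIG1 (−3.10).

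Features without exactly 1 gene symbol, which the comparisons do not use, held 327 passing responses of their own among 10888 tested.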

How the results depend on the processing

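Of the 2489 genes that differed, 1271 passed in the same direction under all 22 alternatives. Array weights raised the counts to 5445 (2375 higher, 3070 lower) for the siRNA difference, 3950 (1561 and 2389) for the mavacoxib difference and 4220 (2121 and 2099) for siRNA minus mavacoxib. With every array shifted to one median, which moved the median of all genes from −0.02 to −0.14, 2102 genes were lower and 26.6% of calls were higher, against 44.2%. Leaving out single siRNA arrays gave 1860 to 3311 genes. With the replicate number as a block 2300 genes passed (1052 higher, 1248 lower), 1525 for mavacoxib and 1737 for siRNA minus mavacoxib. The causes were not tested. Of the 242 passing genes that the naming rule gave, printed here or not, 180 passed under every alternative that gave them a value. None reversed. Raising dim signals to the median turned the uncalled values of NR4A1 from −0.81 to 0.05 and of ISG15 from −0.61 to 0.53. Array signal near background limits statements on dim genes, and 17 of 77 passing genes with several features had a feature of opposite sign.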

Other observations

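Of the features without exactly 1 gene symbol, 3% passed for the siRNA difference, 201 higher and 126 lower in spheres, with largest differences of 5.50 and −2.85. They are unnamed here.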
